A study of Mus musculus with 6 samples.

Results

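The genes described here encode the proteins of the mitochondrial ribosome. They were taken from the deposited table as every protein coding gene whose symbol starts with Mrpl or Mrps followed by a number, with each gene model used once. The rule found 78 genes among 40303 gene models, 49 named Mrpl and 29 named Mrps, and used no measured value. The deposited gene name calls 77 of the 78 a mitochondrial ribosomal protein, and the remaining one, Mrps7, carries a misspelt form of it. The genes lie on 17 chromosomes, with at most 11 on any chromosome. By structure, 51 of them belong to the large subunit and 26 to the small subunit, because Mrps30 and Mrps18a carry a small subunit name but sit in the large subunit. Mrps36 is no longer counted as a ribosome subunit and is now placed with the oxoglutarate dehydrogenase complex. Of the 77 subunits, 46 have a counterpart in the bacterial ribosome and 31 are specific to mitochondria.

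RNA was sequenced from 6 tumours grown under the skin of 6 wild-type BALB/c mice from CT26, a colon carcinoma line of that strain. PEGylated glutaminase, an enzyme that breaks down circulating glutamine, was injected into the peritoneum of 3 mice at 50 IU per kg. The other 3 mice received the vehicle, phosphate-buffered saline with 10% glycerol, and every mouse had 2 injections at an interval of 3 days. Each tumour gave 1 library, all 6 tumours came from the same line, and the whole tissue includes host cells as well as tumour cells.

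Mitochondrial ribosomes translate the few proteins that mitochondrial DNA encodes, all of them subunits of the respiratory chain and the ATP synthase. The ribosomal RNAs come from mitochondrial DNA, while every protein of these ribosomes is encoded in the nucleus, made in the cytosol and imported. The small subunit binds and decodes the messenger RNA, and the large subunit joins the amino acids and holds the exit tunnel. Compared with the bacterial ribosome, the mammalian mitochondrial one has less RNA and many added proteins.

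The libraries held 16620223, 16791267 and 16455052 reads in the PEG-glutaminase tumours and 17574698, 18051480 and 17380129 reads in the vehicle tumours, as recovered from the deposited values. The 3 tumours of each group are numbered as in the sample titles. Across the 13557 genes tested, limma called 1 gene higher and 4 genes lower in PEG-glutaminase tumours at an adjusted p of 0.05. Some libraries stood apart in their cell markers. The 7 keratinocyte markers tested together reached 74.6, 64.3 and 84.4 normalized counts in PEG-glutaminase tumours, and 7876, 98.1 and 227 in vehicle tumours, so vehicle 1 was far above the rest. Lor and Dsc3 of this list were at 0 in all 3 PEG-glutaminase tumours. The T and NK cell markers summed to 1817, 574 and 3365 normalized counts in PEG-glutaminase tumours and 4489.5, 4989 and 4164 in vehicle tumours, with PEG-glutaminase 2 the lowest. No marker list was set for the CT26 line itself, so the share of tumour cells was not measured. In bulk tissue such as this, fewer cells of a type and less RNA per cell cannot be told apart.

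No mitochondrial ribosomal protein gene differed between the groups beyond the limit set for a call, and most of the genes had nearly the same level in both. The genes together took 0.325%, 0.336% and 0.308% of the reads in PEG-glutaminase tumours and 0.297%, 0.336% and 0.333% in vehicle tumours, so the groups overlapped. The median difference over the 77 genes tested was -0.0059 on the log2 scale, where a positive value means higher in PEG-glutaminase tumours, against -0.00005 over all 13557 genes tested. The middle 50% of the members lay between -0.093 and 0.060, and that of all genes between -0.17 and 0.15. The members ran from -0.31 for Mrps33 to 0.26 for Mrps27, with 36 above 0 and 41 below, while 50% of all genes were above 0. Only 6 members, or 7.79%, differed by more than 0.25 on the log2 scale, against 32% of all genes, and 51 members, or 66.2%, differed by less than 0.1.

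limma called 0 of the 77 members at an adjusted p of 0.05, where it called 0.0369% of all genes, 0.00738% higher and 0.0295% lower. At an unadjusted p under 0.05 there were 9 members, or 11.7%, in limma, 2 higher and 7 lower, against 18.4% of all genes, 8.92% higher and 9.51% lower. edgeR on the recovered reads also called 0 members, against 0.0369% of all genes, 0.00738% higher and 0.0295% lower, with 9 members at an unadjusted p under 0.05, against 18.2% of all genes. DESeq2 called 0 members, against 3.9% of the genes it adjusted, 1.73% higher and 2.17% lower, with 5 members at an unadjusted p under 0.05, against 16.6% of all genes. The smallest adjusted p of any member in limma was 0.167, for Mrps33.

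The 95% intervals give the size of difference that the 6 tumours leave possible. The interval lay within 1.5-fold in either direction for 76 of 77 members, or 98.7%, and for 63.5% of all genes. The exception was Mrpl14, whose interval ran from -0.59 to -0.03 on the log2 scale. All 77 lay within 2-fold, as did 82.1% of all genes. The median residual SD was 0.12 on the log2 scale in the members and 0.15 in all genes, so the spread between tumours of a group was lower for the typical member than for the typical gene. These comparisons with all genes, and those of the size of differences above, were not matched for level. The lowest mean of a tested member was 164 normalized counts, while all genes tested include those with a mean down to 10.

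**Figure D1:**
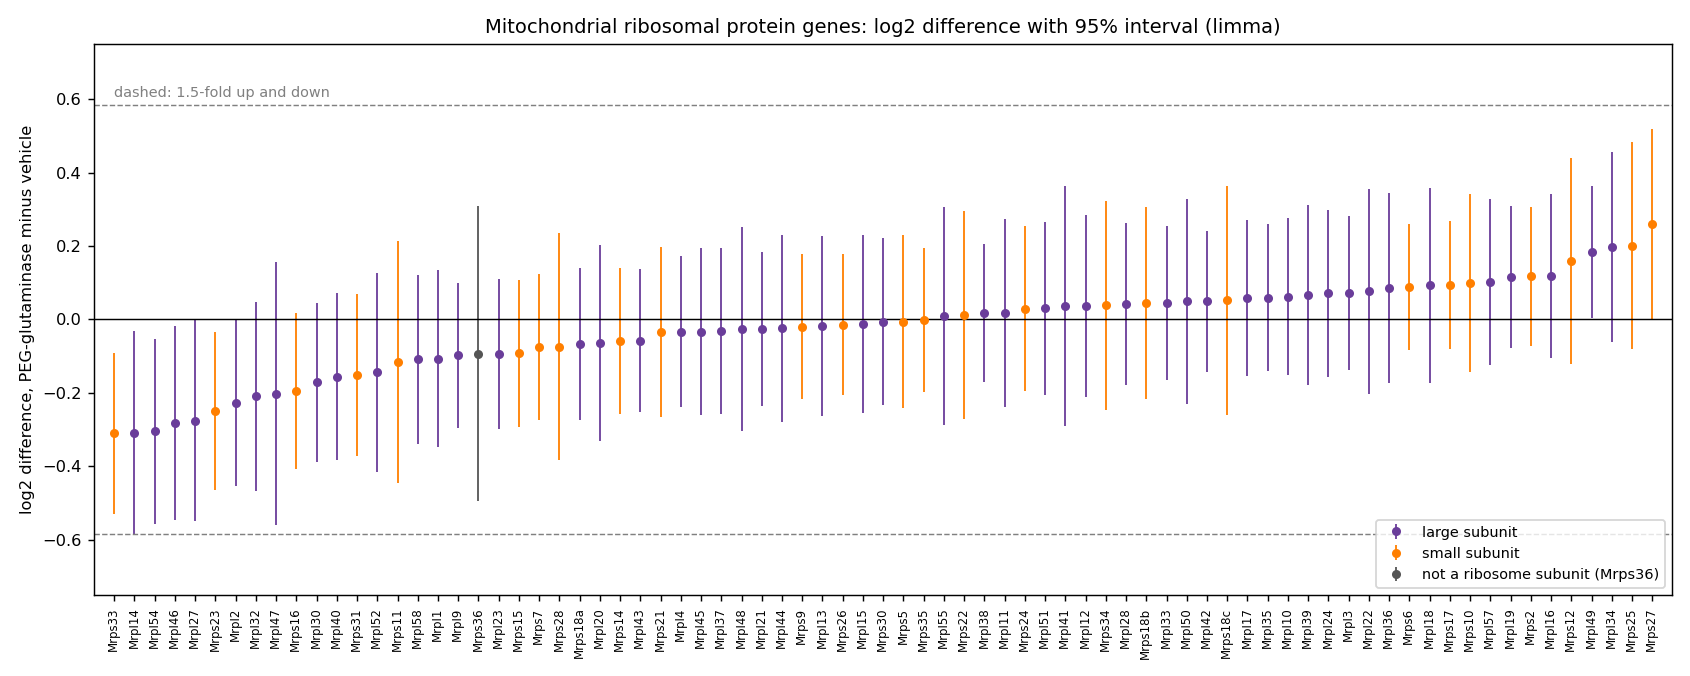
Difference between PEG-glutaminase and vehicle tumours (vertical axis, log2) for each of the 77 tested genes, ordered from lowest to highest. Points are limma estimates from 3 tumours per group, lines are 95% intervals, and colours mark the subunit. The estimates run from -0.31 to 0.26, and 76 intervals lie inside the dashed lines at 1.5-fold.

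Among the genes with lower estimates, the lowest belonged to the small subunit protein Mrps33, which is specific to mitochondria. It had 684, 669 and 638 normalized counts in PEG-glutaminase tumours, against 738, 916 and 823 in vehicle tumours. Every PEG-glutaminase value lay below every vehicle value, and the log2 difference was -0.31 ± 0.10 (SE, n = 3 per group; limma, adjusted p = 0.167). Mrpl14, a large subunit protein with a bacterial counterpart, had 596, 568 and 571 normalized counts in PEG-glutaminase tumours, against 585, 826 and 761 in vehicle tumours. Here vehicle 1 lay among the PEG-glutaminase tumours and the other vehicle tumours lay above, with a log2 difference of -0.31 ± 0.12. Exons of Mrpl14 overlap those of Tmem63b on the opposite strand, and the sources used here do not say whether counting used strand.

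Mrpl54, a large subunit protein specific to mitochondria, had 586, 539.5 and 548 normalized counts in PEG-glutaminase tumours, against 605, 805 and 672 in vehicle tumours. The groups did not overlap, and the log2 difference was -0.30 ± 0.11 (limma, adjusted p = 0.211). In the authors' deposited table Mrpl54 is the 1 member with an adjusted p under 0.05, with a log2 fold change of -0.34 and an adjusted p of 0.0404, where 3.94% of its 11336 genes have such a p, 1.96% lower and 1.98% higher. DESeq2 on the 6 libraries used here gave Mrpl54 an adjusted p of 0.19. The authors' mean signal lay within 0.1% of the mean of these 6 libraries for only 490 of 10334 genes with a mean above 100. Their mean signal is thus not the plain mean of these 6 columns as deposited. Whether other libraries or another scaling entered their comparison cannot be told apart here.

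Mrpl46, another large subunit protein specific to mitochondria, had 263, 246 and 223 normalized counts in PEG-glutaminase tumours, against 275, 306 and 310.0 in vehicle tumours, without overlap. Its log2 difference was -0.28 ± 0.12, and its neighbour Mrps11, a small subunit protein transcribed from the opposite strand with overlapping exons, stood at -0.11 ± 0.15. Mrps23, a small subunit protein specific to mitochondria, had 634, 634 and 546 normalized counts in PEG-glutaminase tumours, against 671, 731 and 751 in vehicle tumours, and a log2 difference of -0.25 ± 0.10. Its groups did not overlap either, and PEG-glutaminase 3 was the lowest tumour.

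Of the large subunit proteins with a bacterial counterpart, Mrpl27, which lies near the site of peptide bond formation in the bacterial ribosome, had 653, 581 and 559 normalized counts in PEG-glutaminase tumours, against 603, 816 and 764 in vehicle tumours. Mrpl2, whose bacterial counterpart is a core protein of the same region, had 1021, 1029.6 and 918 normalized counts in PEG-glutaminase tumours, against 1016, 1189 and 1284 in vehicle tumours. In both genes vehicle 1 fell within the range of the PEG-glutaminase tumours, and the log2 differences were -0.28 ± 0.12 for Mrpl27 and -0.23 ± 0.10 for Mrpl2. Mrpl32 had 318, 328 and 264 normalized counts in PEG-glutaminase tumours, against 344, 346 and 358 in vehicle tumours. Its groups did not overlap, and its log2 difference was -0.21 ± 0.12.

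Among the genes with higher estimates, Mrps27, a pentatricopeptide repeat protein of the small subunit, had 459.9, 491 and 384.8 normalized counts in PEG-glutaminase tumours, against 347, 379 and 384.6 in vehicle tumours. The groups were barely apart, with PEG-glutaminase 3 just above vehicle 3, and the log2 difference was 0.26 ± 0.12 (limma, adjusted p = 0.269). Mrpl49, a large subunit protein specific to mitochondria, had 764, 739.5 and 738 normalized counts in PEG-glutaminase tumours, against 663, 671 and 641 in vehicle tumours. The 3 tumours of each group lay close together, and the log2 difference of 0.18 ± 0.08 (limma, adjusted p = 0.262) kept to between 0.16 and 0.20 when any library was left out. Exons of Mrpl49 overlap those of Syvn1 on the opposite strand.

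Mrps25, a small subunit protein specific to mitochondria, had 639, 744 and 572 normalized counts in PEG-glutaminase tumours, against 506, 544 and 649 in vehicle tumours. Mrpl34, a large subunit protein with a bacterial counterpart, had 505, 619.7 and 542 normalized counts in PEG-glutaminase tumours, against 437, 543 and 474 in vehicle tumours. The groups overlapped in both, and both log2 differences were 0.20, with an SE of 0.13 for Mrps25 and 0.12 for Mrpl34. Mrps12, the counterpart of a bacterial protein at the decoding centre, had 687, 582 and 496 normalized counts in PEG-glutaminase tumours, against 484, 525 and 560.2 in vehicle tumours, with overlap and a log2 difference of 0.16 ± 0.13.

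**Figure D2:**
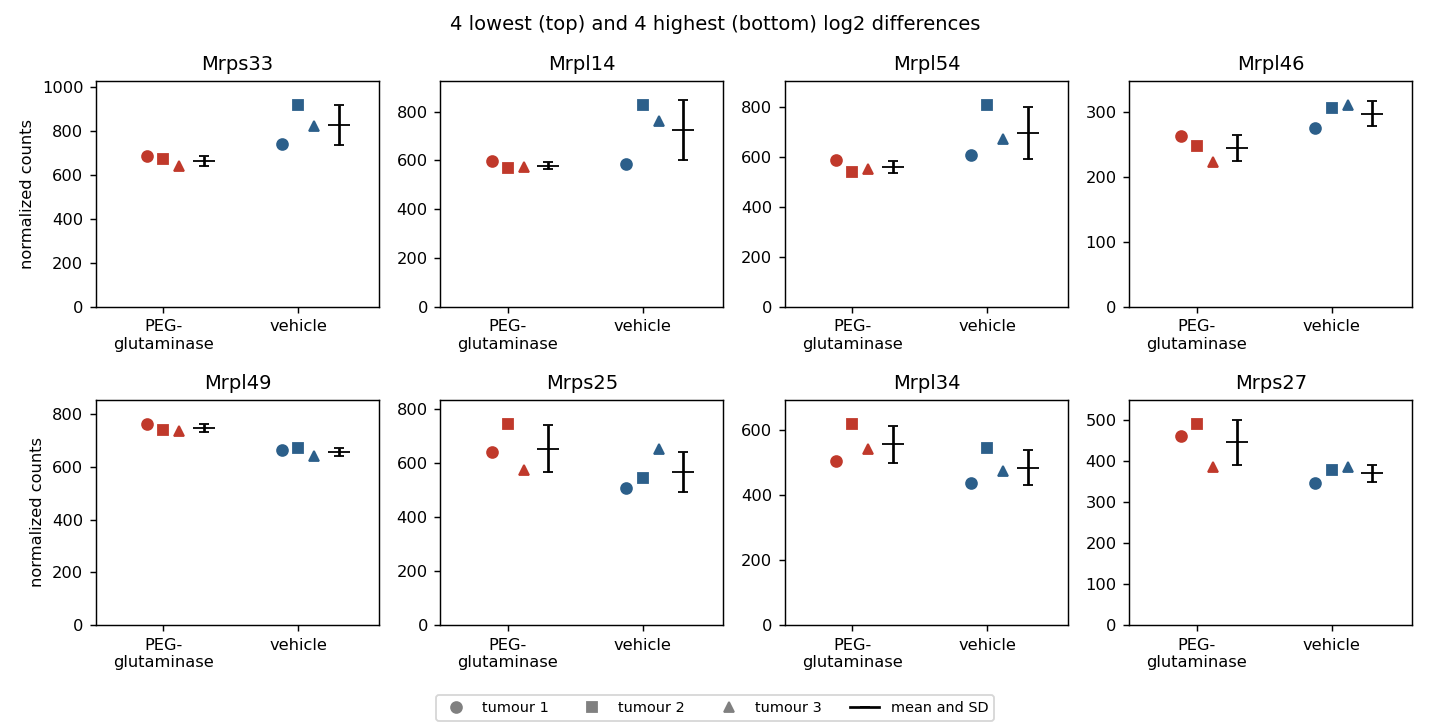
Normalized counts (vertical axis, from 0) in each tumour for the 4 genes with the lowest estimates (top) and the 4 with the highest (bottom). Red points are PEG-glutaminase tumours, blue points are vehicle tumours, symbols mark the tumour number, and bars are mean and SD. In Mrpl14 the vehicle 1 tumour, at 585, lies among the PEG-glutaminase tumours, at 568 to 596.

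Over all 77 members the groups did not overlap in 8, against 25.8% of all genes. The 2 higher ones were Mrpl49 and Mrps27, against 13.1% of all genes, and the 6 lower ones were Mrps33, Mrpl54, Mrpl46, Mrps23, Mrpl32 and Mrps31, against 12.7%. Mrps31, a small subunit protein specific to mitochondria, averaged 337 ± 3.63 normalized counts in PEG-glutaminase tumours and 374 ± 20.6 in vehicle tumours (SD, n = 3 each), a log2 difference of -0.15 ± 0.10. The share of members without overlap was thus below the background in each direction.

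The promoter windows of 2 genes from the lower end and of the 2 without overlap at the higher end are shown, since many genes of mitochondrial gene expression share promoter motifs for the factors NRF1, GABP and YY1. Each window is the reference sequence of RefSeq on GRCm38.p6, from 250 bases before the start of transcription to 50 bases after it, read 5′ to 3′ on the strand of the gene. Capitals mark matches to a searched motif. Mrps33 lies at chr6:39810887-39811186 on the minus strand, Mrpl14 at chr17:45686099-45686398 on the plus strand, Mrps27 at chr13:99344536-99344835 on the plus strand and Mrpl49 at chr19:6057706-6058005 on the minus strand.
Mrps33: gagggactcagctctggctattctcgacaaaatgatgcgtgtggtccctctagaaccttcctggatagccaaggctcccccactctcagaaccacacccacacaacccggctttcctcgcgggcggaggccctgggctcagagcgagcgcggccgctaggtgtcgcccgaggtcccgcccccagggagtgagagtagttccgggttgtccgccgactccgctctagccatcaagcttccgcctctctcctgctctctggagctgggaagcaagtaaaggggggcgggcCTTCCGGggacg
Mrpl14: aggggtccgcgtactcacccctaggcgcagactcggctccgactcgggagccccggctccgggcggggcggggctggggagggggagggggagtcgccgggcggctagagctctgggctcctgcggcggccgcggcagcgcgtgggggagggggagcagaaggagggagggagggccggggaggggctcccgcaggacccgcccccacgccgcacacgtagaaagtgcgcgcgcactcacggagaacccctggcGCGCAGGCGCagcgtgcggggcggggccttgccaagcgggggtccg
Mrps27: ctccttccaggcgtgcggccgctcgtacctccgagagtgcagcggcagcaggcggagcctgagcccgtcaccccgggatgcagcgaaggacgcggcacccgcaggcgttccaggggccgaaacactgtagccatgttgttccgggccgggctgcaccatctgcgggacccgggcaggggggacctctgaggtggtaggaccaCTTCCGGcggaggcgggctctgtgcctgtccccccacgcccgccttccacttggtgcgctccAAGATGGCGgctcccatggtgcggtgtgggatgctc
Mrpl49: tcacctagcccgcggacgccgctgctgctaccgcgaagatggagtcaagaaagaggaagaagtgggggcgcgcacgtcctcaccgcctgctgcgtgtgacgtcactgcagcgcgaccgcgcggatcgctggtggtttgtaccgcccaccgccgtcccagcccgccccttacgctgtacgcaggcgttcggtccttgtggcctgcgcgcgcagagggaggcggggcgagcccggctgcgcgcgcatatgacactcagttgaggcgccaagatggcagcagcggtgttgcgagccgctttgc

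Searched on both strands by letters alone, the window of Mrps33 held 1 match to CCGGAAG, the core of the ETS motif that GABP binds, and that of Mrpl14 held 1 match to the NRF1 motif, which is GCGCA, any base and GCGC in a row. The window of Mrps27 held 1 match to CCGGAAG and 1 to AANATGGCG, the YY1 motif, while that of Mrpl49 held none of the 3. No match printed here overlaps another. In all, 69 of the 78 members had a window in the table. The NRF1 motif was in 13 of them, or 18.8%, against 11.2% of the tested genes with a window and 5.19% of all 27025 genes with one. CCGGAAG was in 26, or 37.7%, against 19.6% of tested genes and 9.93% of all genes. AANATGGCG was in 11, or 15.9%, against 5.86% of tested genes and 2.76% of all genes. At least 1 of the 3 motifs was in 42 members, or 60.9%, against 31.99% of tested genes and 15.9% of all genes. The windows of the members also had a median GC content of 58.67%, against 52.67% over all windows, and a median of 21 CpG sites, against 7. A match is a run of letters and not a measured binding site.

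Genes of the large and of the small subunit had medians near 0. The median log2 difference was -0.0091 over the 50 large subunit genes tested and -0.0040 over the 26 small subunit genes. Within each tumour the small subunit median, taken as deviation from the mean of the 6 tumours, differed from that of the large subunit by -0.0070, -0.0089 and 0.0060 in PEG-glutaminase tumours and by 0.0039, -0.027 and -0.0072 in vehicle tumours, on the log2 scale. Genes with a bacterial counterpart had a median log2 difference of 0.0018 over 46 genes, and those specific to mitochondria one of -0.0098 over 30. At an unadjusted p under 0.05 in limma were 3 genes with a bacterial counterpart, or 6.52%, all lower. Among the genes specific to mitochondria there were 6, or 20%, with 2 higher and 4 lower. Over all genes the share was 18.4%, with 8.92% higher and 9.51% lower. Whether these shares differ was not tested.

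Genes of known function stood near 0 as well. Mrpl12, a protein of the stalk that recruits translation factors, had 1026, 1029.6 and 902 normalized counts in PEG-glutaminase tumours, against 818, 1026 and 1052 in vehicle tumours, a log2 difference of 0.04 ± 0.11. Mrpl58, a peptidyl-tRNA hydrolase that became part of the large subunit, had 495, 509 and 432 normalized counts in PEG-glutaminase tumours, against 478, 525 and 543 in vehicle tumours, a log2 difference of -0.11 ± 0.10. Mrpl3, a large subunit protein with a bacterial counterpart, stood at 0.07 ± 0.09 and Mrpl44, a large subunit protein with a ribonuclease III-like fold, at -0.02 ± 0.11. The groups overlapped in all 4 genes.

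Mrps22 and Mrps34, small subunit proteins whose genes carry disease variants in human patients, stood at 0.01 ± 0.13 and 0.04 ± 0.13 on the log2 scale. Mrps2, a small subunit protein with a bacterial counterpart, had 1096, 1003 and 940.3 normalized counts in PEG-glutaminase tumours, against 937, 908 and 949.6 in vehicle tumours, a log2 difference of 0.12 ± 0.09. The large subunit proteins Mrpl16 and Mrpl19, both with a bacterial counterpart, stood at 0.12 ± 0.10 and 0.11 ± 0.09. The homologues of the bacterial small subunit protein S18 are encoded by Mrps18a, Mrps18b and Mrps18c, of which Mrps18c holds the bacterial position and the others are counted above as specific to mitochondria. Their log2 differences were -0.07 ± 0.09, 0.04 ± 0.12 and 0.05 ± 0.14, and the sign of each changed under at least 1 alternative setting of the processing. Mrps30, in the large subunit despite its name, stood at -0.01 ± 0.10 and Mrps36, outside the ribosome, at -0.09 ± 0.18.

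The most abundant members by mean normalized count were Mrps17, Mrps26, Mrpl13, Mrpl30 and Mrpl17. Mrps17 averaged 1856 ± 76.3 normalized counts in PEG-glutaminase tumours and 1740.0 ± 97.6 in vehicle tumours, and Mrps26 averaged 1779 ± 105 in PEG-glutaminase tumours and 1797 ± 138 in vehicle tumours (SD, n = 3 each). The log2 differences of these 5 were 0.09 ± 0.08 for Mrps17, -0.01 ± 0.09 for Mrps26, -0.02 ± 0.11 for Mrpl13, -0.17 ± 0.10 for Mrpl30 and 0.06 ± 0.10 for Mrpl17. The least abundant of the tested members were Mrps36, Mrpl47 and Mrpl55. Mrpl47 had 174, 252 and 228 normalized counts in PEG-glutaminase tumours, against 226, 282 and 240.3 in vehicle tumours, a log2 difference of -0.20 ± 0.16, and Mrpl55 stood at 0.01 ± 0.13. Mrpl53 was listed at 0 reads in all 6 libraries, which is under the limit of 3 reads per library that a count of 0 allows. Its exons overlap those of Gm42688 on the same strand and of Ccdc142os on the other, and the sources used here do not say how shared reads were counted. In all, 33 of the 78 genes have an exon overlapping another gene, 28 on the opposite strand and 8 on the same strand, with some in both classes.

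Per kb of the principal transcript, which allows levels to be compared between genes, the members spanned a wide range. Mrpl52, a large subunit protein specific to mitochondria, was highest at 2694 ± 215 normalized counts per kb in PEG-glutaminase tumours and 2997 ± 477 in vehicle tumours. Mrps21 and Mrpl33, a small and a large subunit protein with bacterial counterparts, followed, with Mrps21 at 1678 ± 191 in PEG-glutaminase tumours and 1713 ± 114 in vehicle tumours, and Mrpl33 at 1687 ± 91.3 in PEG-glutaminase tumours and 1637 ± 147 in vehicle tumours. Mrps21 and Mrpl33 did not differ from each other beyond their SD. The lowest tested gene was Mrpl47 at 64.9 ± 11.9 normalized counts per kb in PEG-glutaminase tumours and 74.1 ± 8.57 in vehicle tumours, next to Mrps5 at 77.01 ± 4.05 in PEG-glutaminase tumours and 77.4 ± 5.21 in vehicle tumours. The median over the tested genes was 447 per kb in PEG-glutaminase tumours and 437 in vehicle tumours. These levels depend on the transcript length taken from the annotation, which is long for Mrpl47, at 3364 bases, and short for Mrpl52, at 418 bases.

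**Figure D3:**
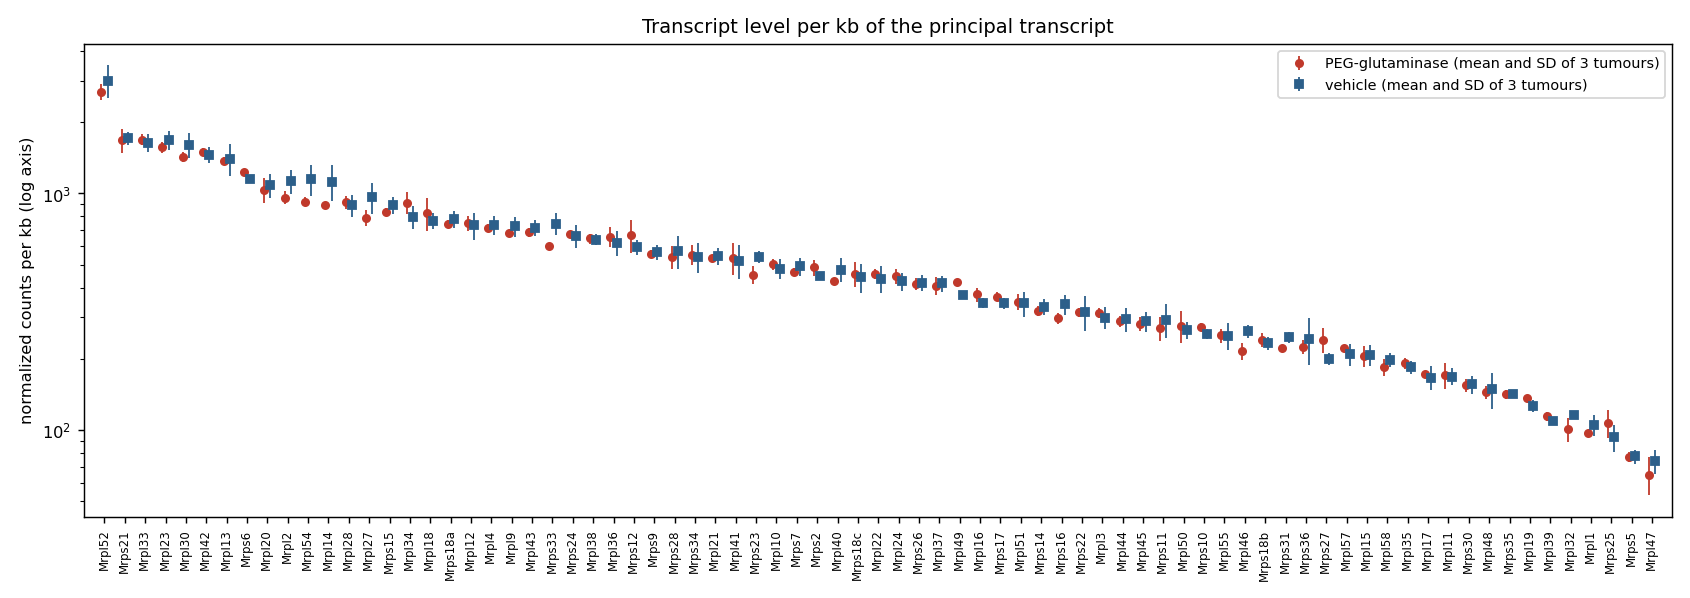
Level of each tested gene per kb of its principal transcript (vertical axis, normalized counts per kb, log axis), ordered from highest to lowest. Red circles are PEG-glutaminase and blue squares are vehicle means of 3 tumours, with SD. Mrpl52 is highest, at 2694 and 2997 in the PEG-glutaminase and vehicle means.

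Although the groups had nearly the same centre, the genes varied together from tumour to tumour. As the median deviation from each gene's own mean over the 6 tumours, on the log2 scale, the members stood at 0.022, 0.026 and -0.069 in PEG-glutaminase tumours and at -0.12, 0.11 and 0.043 in vehicle tumours. The lowest and the highest tumour were thus both vehicle tumours. Vehicle 1 was the lowest of the 6 in 41 of 77 members, or 53.2%, against 15.6% of all genes, and vehicle 2 was the highest in 36, or 46.8%, against 22.8% of all genes. Vehicle 1 lay below vehicle 2 in 75 of 77 members, or 97.4%, against 52.5% of all genes, and the median difference of vehicle 2 over vehicle 1 was 0.22 on the log2 scale, against 0.016 over all genes. This order was not particular to the members. In the cytosolic ribosomal protein genes vehicle 1 lay below vehicle 2 in all 83 tested, with a median difference of 0.38. Vehicle 2 was the highest tumour in 92.8% of them. Within the PEG-glutaminase group, PEG-glutaminase 3 was the lowest tumour in 52 members, or 67.5%, against 33.5% of all genes. The SD was larger in vehicle than in PEG-glutaminase tumours in 55 of 77 members.

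**Figure D4:**
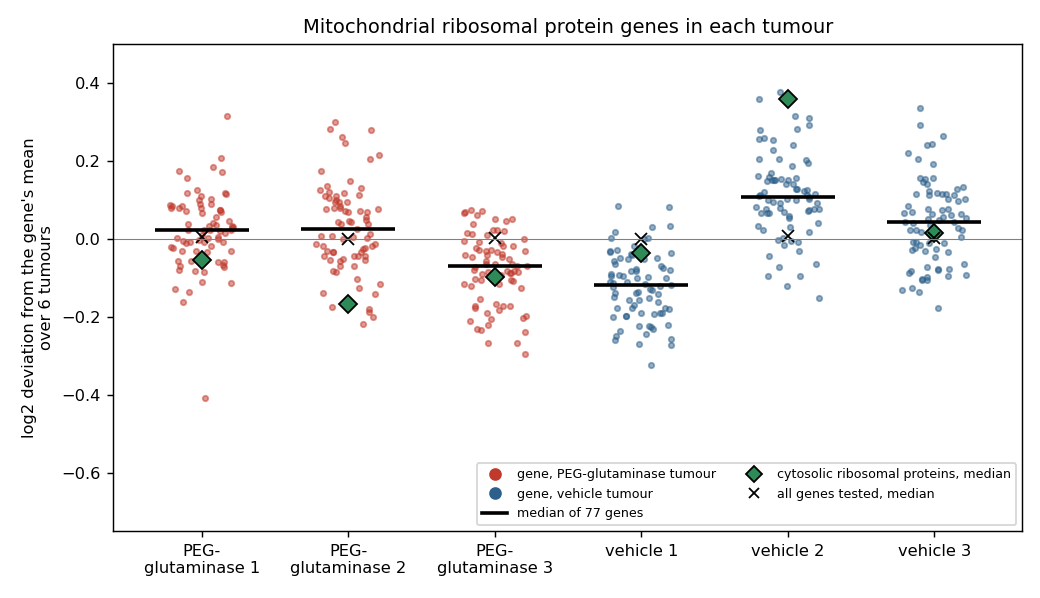
Deviation of each gene from its mean over the 6 tumours (vertical axis, log2), by tumour, with PEG-glutaminase tumours in red and vehicle tumours in blue. Black bars are medians of the 77 genes, at -0.12 in vehicle 1 and 0.11 in vehicle 2, crosses are medians of all tested genes, and diamonds are medians of the cytosolic ribosomal protein genes.

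The direction of the median depended on which vehicle tumour was left out. Without vehicle 1 the median log2 difference of the members was -0.076, 58 of 77 were lower, and the groups did not overlap in 29, of which 2 were higher and 27 lower. That share of 37.7%, in either direction, lay beside 39% of all genes in either direction without this library. limma then had 10 members at an unadjusted p under 0.05, all lower, or 12.99%, against 17.6% of all genes in either direction, and called 0. The shares of all genes that were lower were not taken without this library, so these mostly lower counts have no like background here. Without vehicle 2 the median was 0.041, with 27 of 77 lower and no overlap in 15 members, 9 higher and 6 lower, a share of 19.5% beside 33.5% of all genes. Without vehicle 1 and PEG-glutaminase 2 together the median was -0.11 and the groups did not overlap in 38 members, 3 higher and 35 lower. In either direction that is 49.4%, beside 48.4% of all genes. The members without overlap were thus mostly lower in this setting, and the share of all genes that were lower was not taken for it. The groups did not overlap in 14 members without PEG-glutaminase 1, beside 35% of all genes, in 11 without PEG-glutaminase 2, beside 33.2%, in 14 without PEG-glutaminase 3, beside 38.7%, and in 12 without vehicle 3, beside 37.1%.

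Vehicle 1 and vehicle 2, the lowest and the highest tumour for the members, also stood at an extreme in other measures. Vehicle 1 had the high keratinocyte sum given above. The proliferation markers, all 8 of them detected, summed to 36814, 43159 and 37741 normalized counts in PEG-glutaminase tumours and 33739, 30464 and 33988 in vehicle tumours, with vehicle 2 the lowest in this sum. Taken singly, vehicle 2 was the lowest tumour in Mki67, Top2a, Mcm2 and Mcm4 and not in Ccnb1, Cdk1, Pcna and Birc5. The medians of the cytosolic ribosomal protein genes, as deviations on the log2 scale, were -0.054, -0.17 and -0.097 in PEG-glutaminase tumours and -0.035, 0.36 and 0.016 in vehicle tumours, so vehicle 2 was the highest tumour in both kinds of ribosomal protein while vehicle 1 was the lowest in the mitochondrial kind and not in the cytosolic kind. The part of these in the spread of the members was not tested. Transcripts of the members are short, with a median length of 1339 bases, against 3025 over all tested genes. Across genes, which are not independent replicates, the log2 difference had a Spearman correlation with length of 0.16 in 77 members and 0.29 in 13472 tested genes, and with the length trend taken out of each library the median of the members was 0.063, against -0.0029 over all genes. Among the lowest members, Mrps33, Mrpl14, Mrpl54 and Mrpl27 then stood nearer 0, at -0.21, -0.14, -0.12 and -0.12. Mrpl32 changed little, at -0.20, and Mrpl49 and Mrps27 stood at 0.23 and 0.31.

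Proteins of the mitochondrial ribosome with other symbols gave values of the same size. Of 5 tested, Dap3, a small subunit protein, stood at -0.04 ± 0.10 on the log2 scale, Ptcd3, a pentatricopeptide repeat protein of the small subunit, at 0.09 ± 0.08, Aurkaip1 at -0.16 ± 0.10, Chchd1 at 0.17 ± 0.10 and Gadd45gip1, of the large subunit, at 0.14 ± 0.11. None of the 5 had an unadjusted p under 0.05 in limma. The median over the 5 was 0.090. By median deviation, vehicle 1 was their lowest tumour, at -0.095, and vehicle 2 their highest, at 0.14. The groups did not overlap in 1, Ptcd3, which was higher, where 25.8% of all genes did not overlap, 13.1% higher.

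The genes that build and serve the mitochondrial ribosome were read from the same test. limma called 0 of the 30 assembly factors, 0 of the 21 translation factors, 0 of the 20 mitochondrial aminoacyl-tRNA synthetases, 0 of the 12 genes of mitochondrial DNA and transcription and 0 of the 16 regulators. At an unadjusted p under 0.05 in limma were 2 assembly factors higher and 1 lower, 2 translation factors higher and 1 lower, 5 synthetases higher and 1 lower, 4 genes of mitochondrial DNA and transcription higher and 0 lower, and 2 regulators higher and 0 lower. In either direction that is 10% of assembly factors, 14.3% of translation factors, 30% of synthetases, 33.3% of the genes of mitochondrial DNA and transcription and 12.5% of regulators, against 18.4% of all genes, 8.92% higher and 9.51% lower. The medians of these lists, on the log2 scale, were -0.028, 0.019, 0.084, 0.039 and 0.029, in the same order. By median deviation, vehicle 1 was the lowest tumour in assembly factors, translation factors and synthetases, at -0.033, -0.063 and -0.084. Vehicle 3 was the lowest in the genes of mitochondrial DNA and transcription, at -0.081, and in the regulators, at -0.095. edgeR also called 0 in each of the 5 lists, and DESeq2 called 1 translation factor and 1 regulator, both higher, and 0 in the other 3, against 3.9% of all genes it adjusted.

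Lrpprc, which stabilises mitochondrial messenger RNAs, had 2083, 2177 and 2099 normalized counts in PEG-glutaminase tumours, against 1688, 1496 and 1753 in vehicle tumours. Its groups did not overlap, and its log2 difference of 0.37 ± 0.08 was called by DESeq2 (adjusted p = 0.0174) and not by limma (adjusted p = 0.114). Atf5, a transcription factor of the mitochondrial stress response, had 17407, 16627 and 16707 normalized counts in PEG-glutaminase tumours, against 13787, 14054 and 12627 in vehicle tumours. Its log2 difference of 0.33 ± 0.09 was likewise called by DESeq2 (adjusted p = 0.00775) and not by limma (adjusted p = 0.135). Pprc1, a coactivator of mitochondrial genes, stood at 0.26 ± 0.09.

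In the other lists, Mtif2, a mitochondrial initiation factor, stood at 0.32 ± 0.11 on the log2 scale, and Noa1, a GTPase needed for mitochondrial translation, at 0.27 ± 0.09. Mettl4, a methyltransferase placed in the assembly list without a check of its role there, stood at 0.42 ± 0.14. The synthetases Mars2 and Tars2 stood at 0.43 ± 0.12 and 0.29 ± 0.07, the mitochondrial DNA polymerase Polg at 0.28 ± 0.08 and the mitochondrial RNA polymerase Polrmt at 0.20 ± 0.08. None of these 7 passed in limma, edgeR or DESeq2, and in each the 3 PEG-glutaminase values lay above the 3 vehicle values. The factors whose motifs were searched in the promoters stood at -0.04 ± 0.09 for Nrf1, 0.15 ± 0.07 for Gabpa and 0.02 ± 0.08 for Yy1. Of the 13 proteins encoded by mitochondrial DNA, mt-Cytb and mt-Nd6 had rows, both at 0 reads in all libraries, so the products that these ribosomes translate were not analysed here.

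The cytosolic ribosomal proteins, which form the ribosome of the cytoplasm, gave another picture in the same libraries. Of 83 tested, 82 had a lower estimate in PEG-glutaminase tumours, with a median of -0.19 on the log2 scale, against 41 of 77 and -0.0059 for the mitochondrial ones. The groups did not overlap in 35 of the 83 cytosolic genes, all lower, against 12.7% of all genes, and in 28 the unadjusted p was under 0.05 in limma, all lower, against 9.51% of all genes. limma and edgeR called 0 of them and DESeq2 called 13, all lower, against 2.17% of all genes. The smallest p-values were those of Rps12 and Rps29, proteins of the small cytosolic subunit, at -0.68 ± 0.11 (limma, adjusted p = 0.104) and -0.76 ± 0.13 (limma, adjusted p = 0.111) on the log2 scale, both called by DESeq2. Transcripts of this kind have many near-identical pseudogene copies, and how reads common to several copies were assigned is not known. The cytosolic list took 8.15%, 7.75% and 8.09% of reads in PEG-glutaminase tumours and 8.25%, 10.4% and 8.41% in vehicle tumours, so vehicle 2 stood above the rest. Leaving out each library in turn gave a median between -0.26 and -0.065 for the cytosolic genes and between -0.076 and 0.041 for the mitochondrial ones, and with the length trend taken out the cytosolic median was -0.097. Markers of other cells differed between the same groups. Of the 10 dendritic cell markers, 9 had lower estimates and Zbtb46 a higher one, at 0.07 on the log2 scale. The groups did not overlap in 6, all lower, against 12.7% of all genes. DESeq2 called 4, all lower, against 2.17%, while limma and edgeR called 0. The markers summed to 15089, 6925 and 16047 normalized counts in PEG-glutaminase tumours and 26575, 24563 and 41235 in vehicle tumours. Most of these sums came from Cd74, H2-Aa and H2-Ab1, at 9255, 2700 and 2668 in PEG-glutaminase 1. The 3 erythroid markers tested all had higher estimates without overlap, against 13.1% of all genes. limma called 1 of these markers, Hbb-bs (adjusted p = 0.0371), against 0.00738% of all genes called higher. The 3 summed to 1309, 1264 and 953 normalized counts in PEG-glutaminase tumours and 478, 533 and 589.6 in vehicle tumours. The part of these cell markers in the cytosolic values was not tested, nor was the difference between the 2 ribosomal lists.

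**Figure D5:**
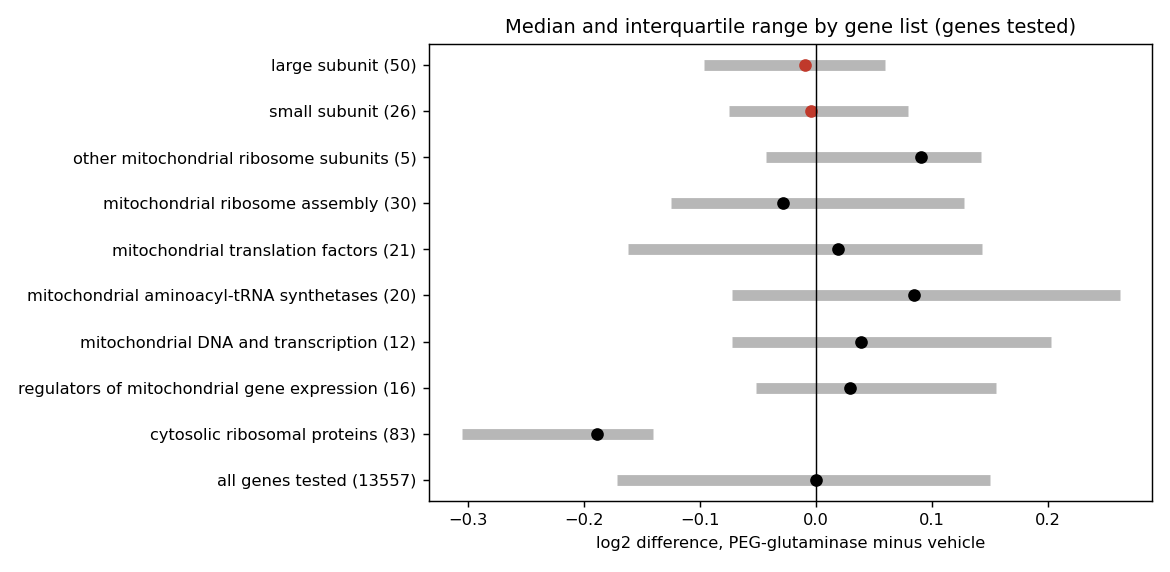
Median (point) and interquartile range (grey bar) of the log2 difference between PEG-glutaminase and vehicle tumours (horizontal axis) for each gene list, with the number of genes tested in brackets. Both subunits, in red, have medians near that of all genes tested, and the cytosolic ribosomal proteins lie lower, at -0.19.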

How the data were processed

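RNA from 6 CT26 tumours was sequenced after poly-T capture and random priming, per the labels' protocols, with 1 library and 1 mouse per tumour, so p-values measure the spread between mice. Per the submitters' processing notes, the tools were STAR, featureCounts, FastQC, DESeq and DESeq2. Versions, genome build, strand setting and handling of shared reads are not given there. Per the file headers, the deposited table gives for each BALB/cJ gene model an expression signal per library, which the values show to be read counts divided by a size factor. Further columns, per the file headers, are a comparison by the authors, with mean signal, log2 fold change and its SE, Wald score, p-value and adjusted p-value.

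Of 40396 rows, 93 repeat a gene model and were dropped. All values other than 0 were whole multiples of 1 read's worth within 0.01, so reads were recovered. For PEG-glutaminase 2, whose step lies near 1, this rests on the values alone. Libraries of a group differed well beyond sampling noise (chi-square divided by degrees of freedom, at least 8.11). As these are no raw counts, the main test was limma 3.58.1 in R 4.3.3 (mean trend, robust) on log2(value + 1) for genes with a mean of at least 10, two-sided, with Benjamini-Hochberg adjustment over all 13557 genes tested and a threshold of 0.05. The count test named for raw counts, edgeR 4.0.16, and DESeq2 1.42.0 were run on the recovered reads as alternatives. Fold changes on this scale understate those of low genes. An exact permutation test of 3 against 3 cannot go below a p of 0.1. The test was tried on simulated counts.

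The members and gene lists were chosen with earlier results of these data known, so medians and counts over them are descriptions with no test of their own. The 2 pseudogene rows matching the symbols were left out. Named genes are the 8 highest and 8 lowest log2 differences, the 6 of smallest p, the 5 most and 3 least abundant, and a set of genes of known role, and in each companion list the called genes or else the 2 of smallest p. Dap3, Ptcd3, Aurkaip1, Chchd1, Gadd45gip1, Mrps11, Mrps31, Nrf1, Gabpa, Yy1 and the genes ranked per kb lie outside this rule and were named after their values were seen. Transcript lengths and overlaps came from GENCODE M21 (GRCm38) through the table's Ensembl identifiers, and promoter windows from RefSeq. Alternatives were other pseudocounts, filters, scalings and tests, a transcript length correction (lowess span 0.3), the replicate number as a block, and each library left out.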

Additional observations from a re-analysis of the deposited data

How the results depend on the processing

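limma, edgeR, DESeq2 and limma-voom called 0 mitochondrial ribosomal protein genes under every alternative tried, with 2 to 10 members at an unadjusted p under 0.05 and a smallest adjusted p of 0.125, for Mrps33 in DESeq2. The count over the whole table was 136 with no filter, 487 in DESeq2, 9 at an adjusted p of 0.1 and 1 with the number as a replicate block, against 5. It ran from 0 to 26 with each library left out. It was 0 without PEG-glutaminase 1, vehicle 1 or vehicle 2 (1936, 2366 and 1683 genes at an unadjusted p under 0.05 in limma), 20 when PEG-glutaminase 2 was left out, 26 for PEG-glutaminase 3 and 5 for vehicle 3. Calls in the companion lists were 6 with no filter, 15 in DESeq2 and 2 without vehicle 1 and PEG-glutaminase 2 together, against 0. The members without overlap numbered 11 to 29 with each library left out and 38 without vehicle 1 and PEG-glutaminase 2, against 8, where fewer tumours per group make separation easier. The median of the members was -0.1066 in that last setting. TMM and upper quartile scaling gave medians of -0.0013 and -0.014. Of the 34 named members tested, 20 kept their direction in every alternative, and Mrps18a stood at 0.063 with the length correction.

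The replicate numbers did not pair the tumours. Same-numbered libraries had correlations of deviations from their group means of -0.129, -0.2138 and -0.2202, and with the replicate block limma called 0 members, with 3 at an unadjusted p under 0.05. The depth of 16455052 to 18051480 reads and the lowest mean of a tested member, 164 normalized counts, go with 3 tumours per group, and the 95% intervals give the differences these tumours leave possible.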
